A study of Mus musculus with 6 samples.

Results

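The ZBTB genes encode transcription factors that join an N-terminal BTB domain, through which they pair and bind corepressors, to C-terminal C2H2 zinc fingers, which bind DNA. They were measured in macrophages treated with RI-BPI, a retro-inverso peptide that blocks the corepressor groove of Bcl6, another BTB zinc finger protein. Genes were taken by the platform's symbols: every gene named Zbtb followed by a digit except Zbtb17, plus Bcl6b, Patz1 and Hic1. This gave 40 of 19057 named genes, read by 72 probes. The set was chosen by symbol, but with the log2 changes of this same comparison already known, so the calls below are given as a description, without p-values, and support nothing. By its symbol the set also takes in Zbtb8os, which encodes archease, a cofactor of tRNA ligation, and not a BTB protein. Zbtb4, Zbtb12, Zbtb47 and Zbtb48 were not analysed here.

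Macrophages were grown from bone marrow of 10-week-old male wild-type mice of strain c57Bl6/J. One group received 5 µM of control peptide and the other 5 µM of RI-BPI, both for 12 h in a medium labelled MSF, with 3 Illumina bead arrays for each. Arrays of 1 peptide are technical replicates per the labels, which leave unsaid whether they share an RNA, so errors here measure the spread between arrays and not between cultures or animals. The cultures are bulk samples, in which fewer cells of a type and less RNA per cell cannot be told apart. Between 13866 and 14357 probes were detected per control array and between 12931 and 13843 per RI-BPI array, at a detection p-value under 0.01. Arrays correlated across genes at 0.992 to 0.996 within a peptide and 0.945 to 0.948 between peptides. All 7 macrophage markers with a named probe were detected on every control array, and all but Itgam on every RI-BPI array. None was called higher and 4 were called lower, and their summed intensity was 64007 to 69000 with control and 53305 to 60291 with RI-BPI, whose part in the results below was not tested. Of 20 markers of 6 other cell types, 19 were not detected on any array and 0 passed the detection filter.

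BTB zinc finger proteins are best known as repressors that set cell fate in the immune system. Bcl6 acts in germinal centre B cells and restrains inflammatory genes in macrophages, Zbtb7b (ThPOK) fixes the CD4 T cell fate, Zbtb16 (PLZF) that of natural killer T cells, and Zbtb46 marks classical dendritic cells. Others read DNA methylation or repress genes of growth arrest. In macrophages Zbtb20 is known to strengthen Toll-like receptor responses by repressing the gene of an NF-kB inhibitor.

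Zbtb2 was far higher with RI-BPI, and the fitted log2 changes of the other 21 measured ZBTB genes lay between -0.97 and 0.90. Of the 40 genes, 22 were measured, that is, had a probe detected on at least 3 of the 6 arrays, 2 were detected on fewer arrays and 16 on none. Of the 22 measured, 7 were called higher and 4 lower by limma's moderated test over all 8205 measured genes (adjusted p under 0.05, Benjamini-Hochberg), which left 11 without a call. Over all measured genes 61.3% were called, 30.7% higher and 30.6% lower, beside 11 of the 22 ZBTB genes. With each array centred on its median in place of quantile normalization the split was 5 higher and 7 lower. At a change of at least 1.5-fold, 5 were called higher, against 14.8% of all genes, and 3 lower, against 15.2% (29.9% in either direction). These are fitted changes: of the 3 lower genes, Zbtb8a was undetected with RI-BPI and has a bound of 1.38-fold, Patz1 was detected on 1 of 3 RI-BPI arrays, and Zbtb8os was detected on all. The normalized values of the peptides did not overlap for 12 of the 22 genes, against 64.9% of all genes. The median log2 change over the 22 genes was 0.16, beside 0.008 over all measured genes, and with median centring 0.064 beside -0.078.

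**Figure D1:**
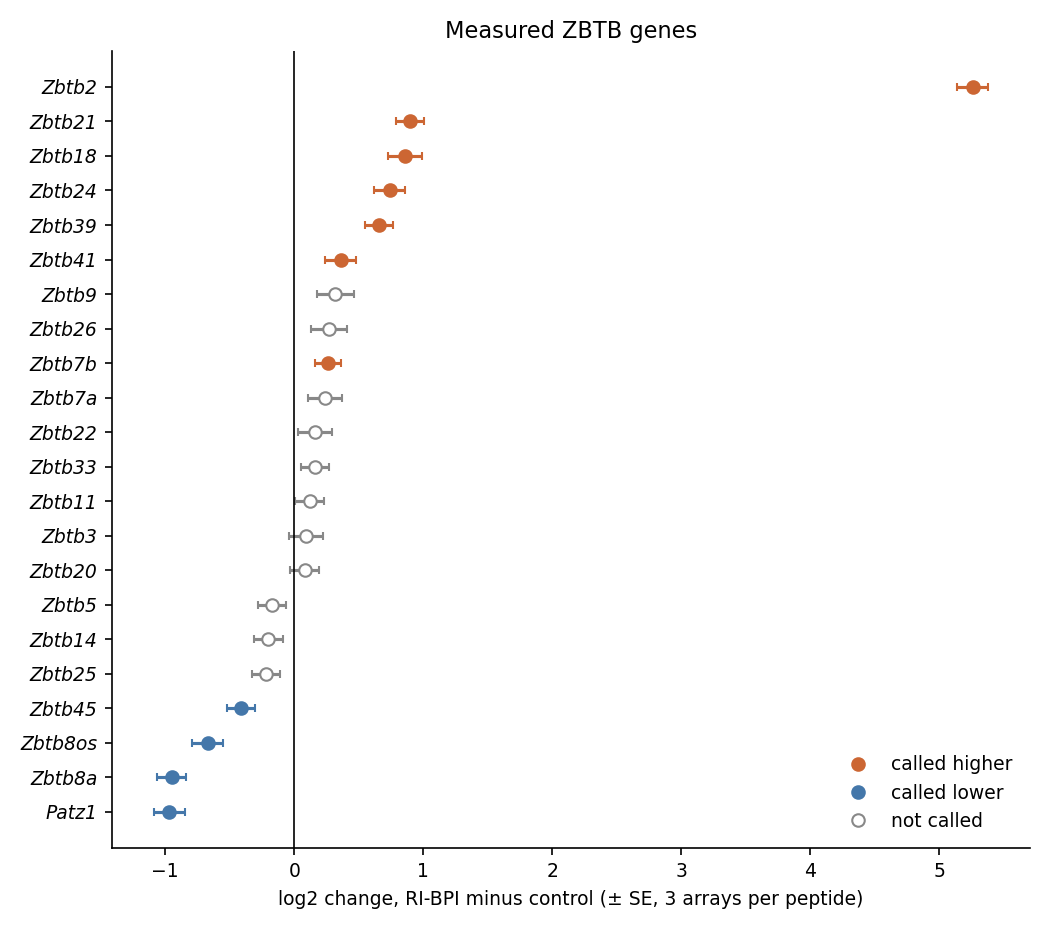
Log2 change (RI-BPI minus control) of the 22 measured ZBTB genes, with the standard error of the fit over 3 arrays per peptide; filled points were called, open points were not. Zbtb2 stands at 5.26 and the other 21 genes lie between -0.97 and 0.90.

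Zbtb2 represses genes of the p53 pathway in human cells, the cell cycle inhibitor CDKN1A among them, and has been found at unmethylated CpG island promoters in mouse embryonic stem cells. It had 1 probe, so no second probe checks it. With control peptide its deposited intensities were 92.1, 107 and 108, and with RI-BPI 2801, 2894 and 2360. The 3 control values were low but above background on every array, where array medians lay between 45.8 and 47.4, and the lowest RI-BPI value was 21.9 times the highest control value. The bead standard errors were 5.20, 5.29 and 6.87 with control and 165, 228 and 214 with RI-BPI, from 36 to 53 beads per array. The spread between arrays was thus 1.54 times the bead error with control and 1.41 times with RI-BPI, against a median of 1.05 over the measured ZBTB genes for either peptide.

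After background correction and quantile normalization the control arrays gave a log2 level of 6.13 ± 0.20 (SD, n = 3) for Zbtb2 and the RI-BPI arrays 11.39 ± 0.11, a log2 change of 5.26 ± 0.12 (SE) or 38.4-fold. The ratio of the mean deposited intensities, which still contain background, was 26.2. Among all 8205 measured genes this was the increase of rank 4, after Prf1 (perforin), Inhba (the activin A subunit) and Hspa1a (a heat shock chaperone), and its rank lay between 2 and 4 under the 14 other settings tried. Its log2 change lay between 4.56 and 5.35 under those settings. Its chromosomal neighbour Rmnd1, a mitochondrial translation gene, was at -0.22 ± 0.11 and was not called, and the neighbour on the other side, Akap12, was not detected on any array.

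**Figure D2:**
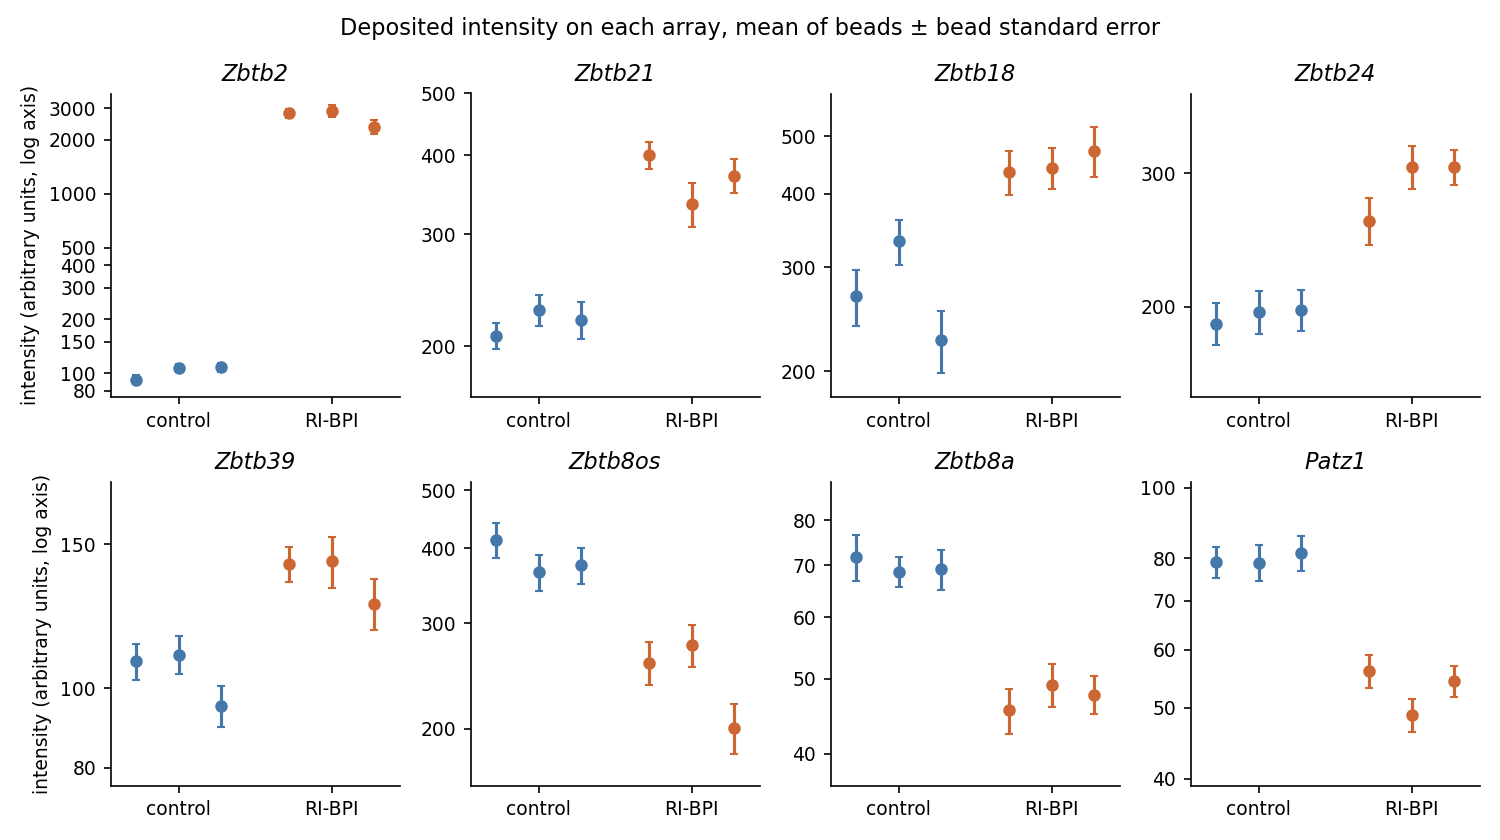
Deposited intensity (log axis, with a range of its own in each panel) of the 8 ZBTB genes called with a fitted change of at least 1.5-fold (for Zbtb8a, undetected with RI-BPI, the bound is 1.38-fold), on the 3 control arrays (blue) and the 3 RI-BPI arrays (orange); bars are bead standard errors. The groups do not overlap in any panel, and the Zbtb2 panel spans 92.1 to 2894 while Patz1 and Zbtb8a lie near the background.

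The 250 bases before the annotated start are shown for Zbtb2, for Zbtb21, the next largest increase, and for Zbtb8a, undetected with RI-BPI, because their CpG content and motif matches differ. Sequences are from RefSeq on GRCm38.p6, 5′ to 3′ on the gene's strand, in lower case. All 3 genes are on the minus strand, at chr10:4388109-4388358 for Zbtb2, chr16:97962623-97962872 for Zbtb21 and chr4:129378029-129378278 for Zbtb8a. Capitals mark a match to GAANNTTC, a pair of heat shock units, in Zbtb2 and to the E-box CACGTG in Zbtb21, and Zbtb8a held no match to any of the motifs searched. GC boxes, of which the Zbtb2 stretch held 2 and the Zbtb21 stretch 3, are left in lower case.
Zbtb2: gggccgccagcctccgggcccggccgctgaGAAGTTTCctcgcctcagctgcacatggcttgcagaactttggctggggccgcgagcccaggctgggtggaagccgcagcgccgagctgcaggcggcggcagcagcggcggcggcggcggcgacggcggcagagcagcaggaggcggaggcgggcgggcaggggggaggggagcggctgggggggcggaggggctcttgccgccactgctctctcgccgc
Zbtb21: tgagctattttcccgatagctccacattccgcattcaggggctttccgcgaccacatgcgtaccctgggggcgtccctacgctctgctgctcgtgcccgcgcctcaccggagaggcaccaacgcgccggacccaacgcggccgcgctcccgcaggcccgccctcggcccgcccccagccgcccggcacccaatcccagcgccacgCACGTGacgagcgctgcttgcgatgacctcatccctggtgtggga
Zbtb8a: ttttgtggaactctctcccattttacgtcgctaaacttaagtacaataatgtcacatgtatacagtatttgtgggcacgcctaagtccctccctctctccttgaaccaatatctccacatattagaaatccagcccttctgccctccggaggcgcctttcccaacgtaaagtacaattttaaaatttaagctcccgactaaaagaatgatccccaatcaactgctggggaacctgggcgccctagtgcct
The stretch of Zbtb2 holds 28 CpG, that of Zbtb21 30 and that of Zbtb8a 8. Over the 32 annotated starts of the 22 measured ZBTB genes the median was 18.5, beside 6.0 over all 32851 starts listed, noncoding and unmeasured genes included. No median over measured genes alone was taken, so a high CpG count is not shown to be particular to the set.

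A set of 8 motifs was searched on both strands of these stretches. GAANNTTC was held by 1 of the 32 stretches, that of Zbtb2, and by 6.69% of all stretches. CACGTG was found in 4 of the 32 stretches, before Zbtb11, Zbtb21 and Zbtb25, and in 6.02% of all. The GC box GGGCGG stood before 16 of the 22 genes and in 20 of the 32 stretches, against 32.7% of all. All stretches include those of noncoding and unmeasured genes. No share over measured genes alone was taken, so the values do not show that GC boxes are particular to the set. The Kaiso site TCCTGCNA was in 4 of the 32 stretches, 3 of them overlapping or close starts of Zbtb18 and 1 of Patz1, and in 4.03% of all. The CRE TGACGTCA was in 1 stretch, before Zbtb11, and in 1.55% of all. TTCNNNGAA, the core shared by Bcl6 and STAT sites, was in none of the 32 stretches and in 7.02% of all, TGANTCA (AP-1) in none and 6.75%, and TGATGNAA (ATF4 with C/EBP) in none and 3.45%. Apart from the GC box, these matches were in few stretches, and a match describes letters and not binding.

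Of the 10 genes grouped here as lineage regulators of blood and immune cells, 5 were measured, of which Zbtb7b was called higher and Patz1 lower. Patz1 (MAZR) regulates the Cd8 locus and represses the ThPOK gene in CD8 T cells. Its intensities were 79.0, 78.9 and 81.4 with control and 56.1, 48.9 and 54.4 with RI-BPI, where it was detected on 1 of 3 arrays. All 3 RI-BPI values were below all control values, and the fitted log2 change was -0.97 ± 0.12, against a group mostly below detection. Its second kept probe gave -0.05 ± 0.12 with overlapping groups. That probe lay between 53.3 and 60.3 with control, detected on 2 of 3 arrays. With RI-BPI it lay between 51.9 and 57, detected on 1 of 3. It was near the background already with control, where a decrease could hardly show, so it does not settle the change at the first probe. Without background correction the first probe gave -0.54, with an offset of 50 it gave -0.49, in the authors' normalized table -0.47, and the mean of both probes gave -0.51. Its measured neighbour Drg1, a GTPase gene, was at 0.12 ± 0.11 and not called.

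Zbtb7b was at 66.3, 66.7 and 64.0 with control and 70.5, 67.7 and 70.4 with RI-BPI, a log2 change of 0.26 ± 0.10. The groups did not overlap, but the call was lost in 9 of 14 other settings, among them median centring (0.12), no background correction (0.15), an offset of 50 (0.14) and the authors' table (0.13). It was also lost without control replicate 1 (0.28), 2 (0.26) or 3 (0.25) and without RI-BPI replicate 1 (0.27) or 3 (0.22). Zbtb7a (LRF), which directs B against T lymphoid fate, was at 0.24 ± 0.13, Zbtb25 at -0.22 ± 0.11 and Zbtb20 at 0.08 ± 0.11, with a second probe of Zbtb20 at -0.01 ± 0.12. None of these 3 was called. Zbtb7a was called without RI-BPI replicate 3, where its change was 0.38, and Zbtb25 with median centring, at -0.36. Bcl6b, the closest relative of Bcl6, Zbtb16, Zbtb32 and Zbtb46 were not detected on any array, and Zbtb1, needed for lymphoid development, was detected on 1 RI-BPI array only.

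Of the members grouped here by a link to DNA methylation or CpG DNA, Zbtb24 rose beside Zbtb2. Zbtb24, mutated in a human syndrome of immunodeficiency with loss of centromeric DNA methylation, was at 190, 197 and 198 with control and 260, 306 and 306 with RI-BPI. Every RI-BPI array was above every control array, with a log2 change of 0.74 ± 0.12 (1.67-fold). Its measured neighbour Mical1, a flavoprotein that acts on actin, was also called higher, at 0.51 ± 0.11. Zbtb33 (Kaiso), a reader of methylated DNA, was at 0.16 ± 0.11 with overlapping groups and was not called. Its probe was detected on all 6 arrays, while its other 3 probes were below the filter. Zbtb38, a relative of Kaiso, was not detected on any array.

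Members tied to neural development moved in both directions. Zbtb18 (RP58), a repressor needed for development of the cerebral cortex, was at 268, 332 and 226 with control and 435, 442 and 473 with RI-BPI. The groups did not overlap although the control arrays spread, and the log2 change was 0.86 ± 0.13 (1.82-fold). Its other kept probes gave 0.83 ± 0.11 and 0.39 ± 0.12, both without overlap on the normalized scale. Zbtb45, a regulator of glial differentiation, was at 265, 264 and 273 with control and 208, 198 and 192 with RI-BPI. It fell by 0.41 ± 0.11 on the log2 scale (1.33-fold lower) without overlap, and a second probe gave -0.58 ± 0.11. Zbtb14 (ZF5), a repressor of Myc, was at -0.20 ± 0.11 and not called. Its second probe, undetected with RI-BPI, had a bound of 1.02-fold lower, and Zbtb14 was called with median centring (-0.33) and with the mean of its probes (-0.27). Zbtb42, the relative of Zbtb18 expressed in muscle, was not detected on any array.

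Of the genes grouped here under growth arrest and tumour suppression, Zbtb5 and Zbtb9 were measured, and neither was called. The group is not a full list of genes with such a role, and Zbtb2, described above, stands outside it. Zbtb5, a repressor of CDKN1A in human cells, was at -0.17 ± 0.11 and was called with median centring only (-0.33). The brighter probe of Zbtb9 gave 0.32 ± 0.14 without overlap on the normalized scale and was not called, whereas its dimmer probe was at 64.5, 73.8 and 69.5 with control and 93.2, 105 and 95.3 with RI-BPI. The groups did not overlap at that probe, whose log2 change was 0.89 ± 0.12. The mean of both probes (0.61) was called, and the brighter probe was called without control replicate 2 (0.41), without control replicate 3 (0.43), without RI-BPI replicate 3 (0.35) and with the replicate block (0.32). Hic1, a tumour suppressor gene, Zbtb49 and Zbtb7c were not detected on any array. Of the genes grouped here under telomeres and DNA repair, Zbtb10 was not detected on any array and Zbtb40 was below the filter.

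**Figure D3:**
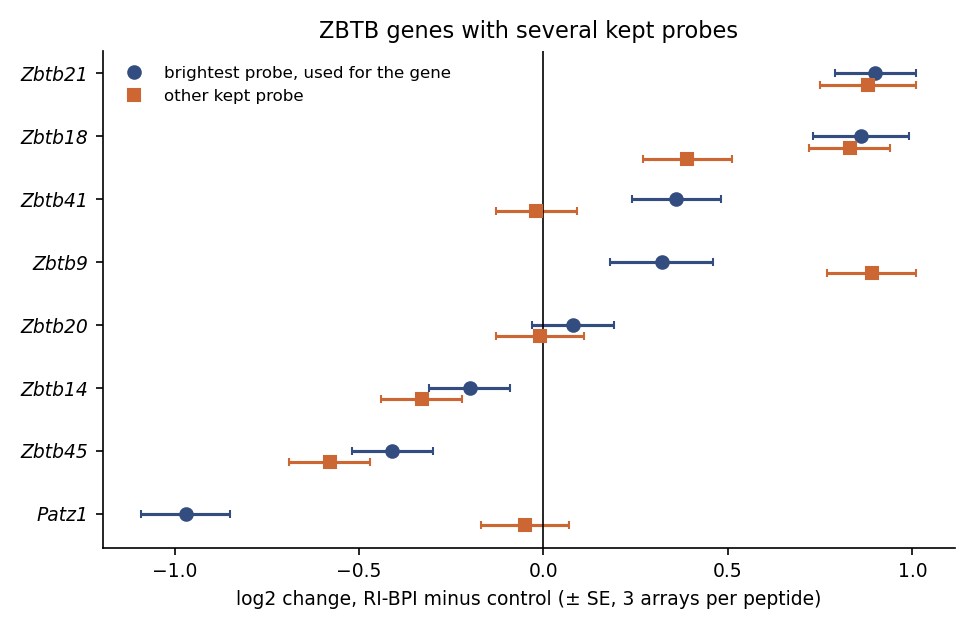
Log2 change (RI-BPI minus control, ± SE, 3 arrays per peptide) at each kept probe of the 8 ZBTB genes with several kept probes; circles are the brightest probe and squares the others. The probes of Zbtb21 lie close together, those of Patz1 are at -0.97 and -0.05, and those of Zbtb9 at 0.32 and 0.89.

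Among the less characterised members, Zbtb21 and Zbtb39 rose and Zbtb8a fell. Zbtb21, a repressor whose human protein binds ZBTB14, was at 208, 228 and 220 with control and 400, 335 and 371 with RI-BPI. The groups did not overlap, the log2 change was 0.90 ± 0.11 (1.87-fold), and a second probe gave 0.88 ± 0.13. Its measured neighbour C2cd2 was called higher as well, at 0.45 ± 0.11. Zbtb39 was at 108, 110 and 95.1 with control and 142, 143 and 127 with RI-BPI, again without overlap, with a log2 change of 0.66 ± 0.11 (1.58-fold). Zbtb41 was at 66.9, 77.5 and 75.1 with control and 75.3, 83.2 and 84.1 with RI-BPI, so its deposited intensities overlapped. On the normalized scale they did not, the change was 0.36 ± 0.12, and a second probe gave -0.02 ± 0.11. Its call was lost in 6 of 14 other settings, namely median centring (0.21), no filter (0.36), the mean of its probes (0.17), the authors' table (0.19), and leaving out control replicate 1 (0.26) or RI-BPI replicate 2 (0.32).

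Zbtb8a was at 71.7, 68.7 and 69.2 with control and 45.5, 49.1 and 47.7 with RI-BPI, where it was undetected on all 3 arrays. It was at least 1.38-fold lower, set against the lowest detected values on those arrays, and its measured log2 change was -0.95 ± 0.11, or -0.53 without background correction, -0.43 with an offset of 50 and -0.44 in the authors' table. The convergent neighbour Zbtb8os was at 413, 365 and 375 with control and 258, 276 and 201 with RI-BPI, without overlap. It fell by 0.67 ± 0.12 on the log2 scale (1.59-fold lower), with -0.57 in the authors' table and -0.56 without RI-BPI replicate 3. The other Zbtb8os probe, below the filter, gave -0.03 ± 0.16 with overlapping groups. Zbtb8a and Zbtb8os lie on opposite strands, and whether they overlap was not tested. Rbbp4, a histone-binding chaperone on the far side of Zbtb8os, was at 0.18 ± 0.11 and not called, and Zbtb8b, on the far side of Zbtb8a, was not detected on any array.

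The measured genes not yet named, Zbtb22 (0.16), Zbtb11 (0.12), Zbtb3 (0.09) and Zbtb26 (0.27), had overlapping groups and were not called. Zbtb26 was called without RI-BPI replicate 2, at 0.44. Zbtb11, whose zebrafish counterpart is needed for neutrophil development, and Zbtb26 were each detected on 3 of 6 arrays. Zbtb6, Zbtb34, Zbtb37, Zbtb43 and Zbtb44 were not detected on any array. The 27 probes of the 18 genes not measured had intensities between 35.9 and 59.7, around the array medians, so a decrease in them was not detectable here.

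**Figure D4:**
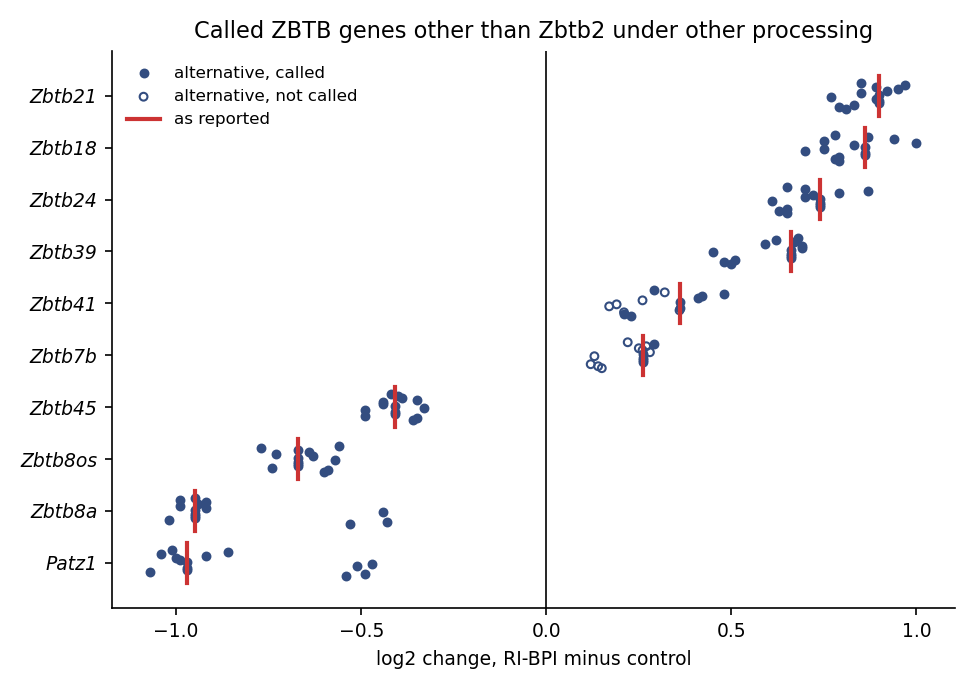
Log2 change (RI-BPI minus control) of the 10 called ZBTB genes other than Zbtb2 under 14 other settings of processing, among them leaving out each array; filled points were called, open points were not, and red lines mark the reported values. Every point lies on the reported side of 0, Zbtb7b and Zbtb41 hold the open points, and Zbtb8a and Patz1 reach -0.43 and -0.47.

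A further list held BTB genes left out by the symbol rule: Zbtb17, which the rule excepts, 5 BTB zinc finger genes under other symbols, and Nacc1 and Nacc2, BTB genes without zinc fingers. All 8 with a probe were measured, and 5 of them (62.5%) were called, 4 higher and 1 lower. Their median change was 0.272. The 4 called higher were Zbtb17 (Miz-1), at 0.84 ± 0.11, Mynn (0.57 ± 0.12), Hic2, the paralogue of Hic1 (0.39 ± 0.11), and Gzf1, a repressor that responds to GDNF (0.31 ± 0.12). Nacc2, a corepressor, fell by 0.48 ± 0.11. Bcl6 itself, at 0.17 ± 0.12, was not called. With median centring the split was 2 higher and 1 lower.

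A pair of larger classes was set beside the family. Of 150 measured Zfp genes, mostly zinc finger genes without a BTB domain, 25 were called lower and 57 higher (29 and 44 with median centring). The class shares Zfp131 with the other BTB genes and Zfp639 with the partners described below. The class median was 0.132, and fitted changes lay between -1.64 (Zfp763) and 1.63 (Zfp523), both named after their values were seen. Zfp763 was undetected on every RI-BPI array, so its change is set against a group below detection. Of 18 measured BTB-Kelch genes, adaptors of the ubiquitin ligase scaffold cullin 3, 4 were called lower and 7 higher, and the median change was 0.127. Klhl21, a mitotic adaptor, was the highest of them at 1.64 ± 0.11 and Klhl5 the lowest at -1.43 ± 0.12, again named after their values were seen. Called shares were 54.7% of the Zfp genes and 61.1% of the BTB-Kelch genes, beside 61.3% of all genes, and the differences between classes were not tested. The change of Zbtb2 lay above every change in these classes. Its rank of 4 among all measured genes fixed this in advance, as Prf1, Inhba and Hspa1a are in none of them.

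**Figure D5:**
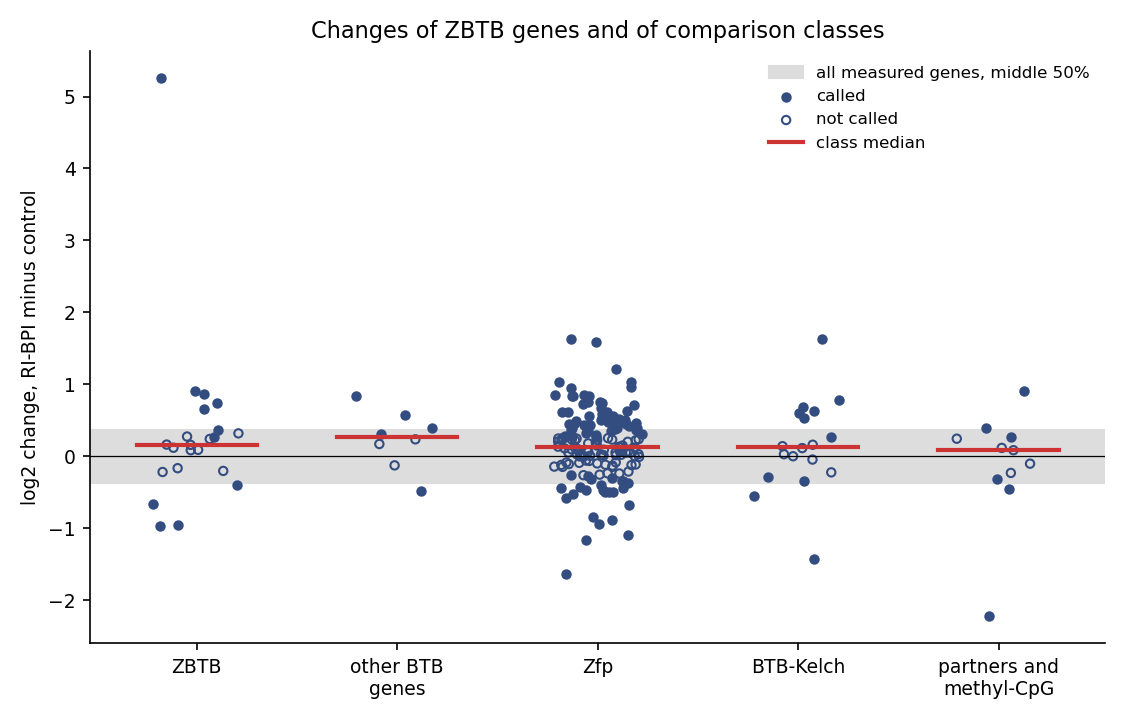
Log2 change (RI-BPI minus control) of each measured gene in the ZBTB set (22), other BTB genes (8), Zfp genes (150), BTB-Kelch genes (18) and partner and methyl-CpG genes (11); filled points were called, red lines are medians and the grey band holds the middle 50% of all measured genes, -0.37 to 0.36. The class medians lie between 0.084 and 0.272, inside the band, and Zbtb2 is the point at 5.26.

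Partners of ZBTB proteins and other genes of DNA methylation split evenly. Calls were made for 6 of the 11 measured (54.5%), 3 in either direction, and the median change was 0.084. With median centring 2 were higher and 4 lower. The number called fell to 4 without control replicate 1 or without RI-BPI replicate 3. It rose to 8 with the mean of kept probes or without RI-BPI replicate 1. Cul3, the cullin that BTB proteins bind, rose by 0.91 ± 0.11 (1.88-fold), Zfp639, found in a complex with ZBTB2, by 0.40 ± 0.11, and Tbl1xr1, a subunit of the NCoR and SMRT corepressor complexes, by 0.27 ± 0.10. Uhrf1, which brings the maintenance methyltransferase to replicating DNA, fell by 2.22 ± 0.11 on the log2 scale (4.67-fold lower) and the methyltransferase Dnmt1 by 0.32 ± 0.11. Ctnnd1, which encodes the Kaiso partner p120 catenin, fell by 0.46 ± 0.12. Ctcf (0.08), Hdac3 (0.12), Mbd1 (-0.10), Mbd3 (-0.23) and Dnmt3b (0.24) were not called.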

How the data were processed

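Per the labels' protocols, total RNA was labelled as biotinylated cRNA for Illumina bead arrays. The authors deposited the mean bead intensity per probe and array, not normalized per the file headers, with bead numbers, bead standard errors and a detection p-value in the same deposited table. The submitters' processing notes list GenomeStudio, without a version. A second table of normalized intensity deposited by the authors, with column medians of 46.33 and an unstated method, served as an alternative.

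Of 45281 probes, 34885 had 1 gene symbol in the platform annotation, 18 several and 10378 none. All 72 probes of ZBTB genes matched RefSeq by Entrez identifier and 0 symbols differed. Background was corrected with limma 3.58.1 in R 4.3.3 (normexp from the detection p-values, offset 16), followed by quantile normalization and log2. Probes detected on at least 3 arrays were kept, and the brightest kept probe stood for a gene. RI-BPI was compared with control by lmFit and eBayes over 8205 genes. Values of other kept probes come from the same model over 12191 kept probes with 1 symbol. A bound sets the detected group's mean against the higher, per array, of the probe's value and the lowest detected value. Bounds were taken on the values with offset 16 only and carry no error. The code was tested on simulated data.

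The genes, lists and tests were chosen with earlier results of these data known. Every ZBTB gene is accounted for, and values on every array are given for Zbtb2 and for called genes with a change of at least 1.5-fold, with 4 further genes or probes added after their values were seen (Zbtb45, Zbtb7b, Zbtb41 and the second probe of Zbtb9). Genes of comparison classes were named after their values were seen, except the called partners. Same-numbered arrays of the peptides did not deviate together (r = 0.02, 0.002 and 0.03), so the numbers were not used as pairs. The 3 arrays per peptide limit the precision.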

Additional observations from a re-analysis of the deposited data

How the results depend on the processing

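The 14 alternatives were no background correction, an offset of 50, median centring, no filter, a stricter filter, the mean of kept probes, the authors' normalized table, a replicate block, and leaving out each of the 6 arrays. The number of ZBTB genes called, 11, lay between 9 and 12 under all of them, 9 with the authors' table and without control replicate 1. The log2 change of Zbtb2 lay between 5.15 and 5.35 over the arrays left out, and was lowest with the authors' table, at 4.56. The median change over the measured ZBTB genes, 0.16, was 0.136 without background correction, 0.129 with an offset of 50, 0.123 with the authors' table, 0.064 with median centring, 0.064 with no filter over 40 genes, and between 0.128 and 0.208 over the arrays left out. The count of called genes among the 8 other BTB genes, 5, was 3 with median centring. The cause of these shifts was not tested. For single ZBTB genes other than Zbtb2, 266 values kept the call or its absence, 15 lost the call and 11 gained it. No called gene changed sign, but genes without a call did, namely Zbtb20 with median centring (-0.08) and Zbtb3 with median centring (-0.02) and without RI-BPI replicate 3 (-0.04). With the replicate block 12 ZBTB genes were called, Zbtb9 being added, and not every array correlated best with the array of its own number. Zbtb11 and Zbtb26 were not measured under the stricter filter. Depth of signal limits Patz1, Zbtb8a, Zbtb11 and Zbtb26, which lay near the background. It also limits genes whose used probe was detected on all 6 arrays but was dim. Among these were Zbtb3 (56.7 to 65.8), Zbtb7b (64 to 70.5), Zbtb14 (60 to 72.2) and Zbtb41 (66.9 to 84.1).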

Other observations

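Probes of Zbtb43, a gene not detected on any array, had values that did not overlap between the peptides at 2 of its 3 probes. At the first the deposited intensities were 42.3, 48.5 and 42.7 with control and 53.7, 53.6 and 53 with RI-BPI, and at the second 43.2, 43.2 and 42.2 with control and 47.4, 46.5 and 48.7 with RI-BPI. These were picked after their values were seen, and both groups lie below detection, so no fold is given.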
